A study of Mus musculus with 4 samples.

Results

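The 8 genes described here are the DNA methyltransferase genes Dnmt1, Dnmt3a, Dnmt3b and Dnmt3l, the maintenance cofactor Uhrf1 and the TET oxidase genes Tet1, Tet2 and Tet3. They were chosen by symbol from the deposited FPKM table and joined by gene identifier to the count table, which gave 8 of 55335 genes. Their transcripts were measured by poly(A) RNA-seq in 4 libraries of mouse spermatogonial stem cells (SSCs) in culture, which renew themselves and give rise to sperm. The libraries were 2 of cells labelled Tex11PM/Y, which carry an allele called PM of the X-linked meiotic gene Tex11, and 2 of wild-type (WT) cells. All came from C57/BL6*DBA2 mice of postnatal day 10, were grown in the same kind of medium with regular passages, and were collected on a cell sorter. The labels do not define PM or name the gate, and nothing in them ties the libraries of a genotype to different cultures or animals. The p-values thus cover only the spread between these samples, which may be technical. Both Tex11PM/Y columns of each table carry the same name, so these libraries are called A and B and cannot be tied to a replicate number.

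DNA methylation in mammals places a methyl group on cytosines of CpG dinucleotides. DNMT1 copies the pattern to the new strand after replication, guided by UHRF1, which binds hemimethylated CpGs, while DNMT3A and DNMT3B set new marks with the help of DNMT3L, which has no catalytic activity of its own. TET enzymes oxidise methylated cytosine, the first step of its removal. In the male germline the pattern is erased in primordial germ cells and set anew in fetal prospermatogonia, when Dnmt3l is high in the mouse, so that SSCs hold a pattern that has to be kept through each division.

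Total counts lay between 19047148 and 19804951 per library. Values in CPM are counts scaled to library sizes after TMM normalization, and the upper limit behind a count of 0 (3 counts) was 0.149 to 0.169 CPM. Tex11, the gene of the label, held 22.7 and 9.32 CPM in Tex11PM/Y libraries A and B, against 66.4 and 126 CPM in WT replicates 1 and 2. Libraries did not group by genotype: a chi-square of their counts, per degree of freedom, was lowest between Tex11PM/Y library B and WT replicate 2, at 18.6, and was 96.5 between the Tex11PM/Y libraries and 94.8 between the WT libraries. Germ cell identity was seen in each library: 7 germ cell markers such as Piwil2 averaged 8.21 and 8.32 log2 CPM in Tex11PM/Y libraries A and B and 8.21 and 8.24 log2 CPM in WT replicates 1 and 2. These 7 markers took 0.317% and 0.288% of counts in Tex11PM/Y libraries A and B, against 0.228% and 0.285% in WT replicates 1 and 2. The 16 markers of undifferentiated spermatogonia averaged 6.17 and 6.44 log2 CPM in Tex11PM/Y libraries A and B and 6.11 and 6.33 log2 CPM in WT replicates 1 and 2, with 11 fitted higher, 5 lower and 0 past the threshold of an adjusted p of 0.05 (edgeR). Other cells differed between libraries more than germ cell markers did. The 15 fibroblast markers averaged 3.73 and 7.92 log2 CPM in Tex11PM/Y libraries A and B and 9.15 and 7.71 log2 CPM in WT replicates 1 and 2. Their share of counts was 0.0602% and 0.702% in Tex11PM/Y, against 1.83% and 0.585% in WT. Thy1, one of the 16 spermatogonia markers, had 4.68 and 57.6 CPM in Tex11PM/Y libraries A and B, against 160 and 56.3 CPM in WT replicates 1 and 2. That is the order of libraries in the fibroblast list, and which cells held Thy1 was not tested. Thy1 was named after its values were seen. The 11 macrophage markers averaged 0.12 and 4.62 log2 CPM in Tex11PM/Y libraries A and B and 4.23 and 3.80 log2 CPM in WT replicates 1 and 2. The 6 Sertoli cell markers that were tested, of 10, averaged 1.55 and 1.16 log2 CPM in Tex11PM/Y and 1.84 and 2.02 log2 CPM in WT, and Fshr had 0 counts in all 4 libraries. In such bulk samples, fewer cells of a type and less RNA per cell cannot be told apart.

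In mm10, as the files give them, the maintenance genes are Dnmt1 (ENSMUSG00000004099.16), at chr9:20907209-20959888 on the minus strand, and Uhrf1 (ENSMUSG00000001228.14), at chr17:56303321-56323486 on the plus strand. The de novo genes are Dnmt3a (ENSMUSG00000020661.15) at chr12:3807030-3914443, Dnmt3b (ENSMUSG00000027478.15) at chr2:153649450-153687730 and Dnmt3l (ENSMUSG00000000730.13) at chr10:78042287-78063622, each on the plus strand. The oxidase genes are Tet1 (ENSMUSG00000047146.17) at chr10:62804570-62899118, Tet2 (ENSMUSG00000040943.12) at chr3:133463679-133544390 and Tet3 (ENSMUSG00000034832.15) at chr6:83362373-83456392, each on the minus strand. In GENCODE M21, a release in which 3 of the 8 genes have the same bounds as in the files, exons of Dnmt3a share 133 bases with the antisense RNA Dnmt3aos, exons of Dnmt3l share 67 bases with Aire, and exons of Tet2 share 43 bases with the antisense RNA Gm42567. The library kit is not stated to keep strand, so reads from these stretches cannot be told apart.

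Sequences around 4 starts are shown: those of the most abundant transcripts, Dnmt1 and Uhrf1, and of Dnmt3l and Tet2, a pair of scarce transcripts whose windows differ widely in CpG content. They were chosen after the levels were seen, and neither Tet1, the least abundant of the 8, nor the windows with the fewest CpGs are among them. Each is the RefSeq window of the GRCm38.p6 build from 250 bases before to 50 after an annotated start, 5′ to 3′ on the gene's strand, with each CpG in capitals. GRCm38 is the assembly also called mm10.
Dnmt1, chr9:20952574-20952873, minus strand: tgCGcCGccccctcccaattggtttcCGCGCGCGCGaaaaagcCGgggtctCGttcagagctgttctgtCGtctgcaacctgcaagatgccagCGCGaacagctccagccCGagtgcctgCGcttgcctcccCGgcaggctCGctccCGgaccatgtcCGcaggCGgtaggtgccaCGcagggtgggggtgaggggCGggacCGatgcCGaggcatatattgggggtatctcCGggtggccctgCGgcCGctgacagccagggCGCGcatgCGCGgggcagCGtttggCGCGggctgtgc
Uhrf1, chr17:56304063-56304362, plus strand: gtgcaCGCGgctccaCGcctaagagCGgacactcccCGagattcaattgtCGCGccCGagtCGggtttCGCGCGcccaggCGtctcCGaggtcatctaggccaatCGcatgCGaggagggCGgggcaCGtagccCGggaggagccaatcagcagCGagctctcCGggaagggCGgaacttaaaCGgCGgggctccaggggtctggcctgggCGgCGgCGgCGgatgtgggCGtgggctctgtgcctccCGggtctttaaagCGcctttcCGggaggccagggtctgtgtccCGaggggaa
Dnmt3l, chr10:78042037-78042336, plus strand: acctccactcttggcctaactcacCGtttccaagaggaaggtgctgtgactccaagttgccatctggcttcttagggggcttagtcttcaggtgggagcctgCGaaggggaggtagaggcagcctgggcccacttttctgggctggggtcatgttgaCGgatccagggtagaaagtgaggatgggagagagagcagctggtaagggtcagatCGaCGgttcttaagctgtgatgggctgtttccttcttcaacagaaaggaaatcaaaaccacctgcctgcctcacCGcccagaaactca
Tet2, chr3:133544341-133544640, minus strand: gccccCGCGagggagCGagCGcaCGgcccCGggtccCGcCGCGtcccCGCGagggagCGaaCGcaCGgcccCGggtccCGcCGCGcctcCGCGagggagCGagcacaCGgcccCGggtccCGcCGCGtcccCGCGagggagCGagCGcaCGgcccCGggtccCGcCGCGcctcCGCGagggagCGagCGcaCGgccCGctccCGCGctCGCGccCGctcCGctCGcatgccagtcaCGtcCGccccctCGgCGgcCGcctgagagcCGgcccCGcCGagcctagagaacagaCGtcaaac

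The Dnmt1 and Uhrf1 windows hold 33 CpGs each, the Dnmt3l window 6 and the Tet2 window 57, where the median of 32851 windows of the same length is 7. CpG content and transcript level did not run in parallel over the windows shown, since Tet2, with the richest window, was among the least abundant. For Dnmt1 and Uhrf1 the window shown is the richest in CpGs of those of the gene. At the start nearest the gene model's 5′ end, Dnmt3a, Dnmt3b, Tet3 and Tet1 have windows with 46, 30, 22 and 17 CpGs. RefSeq lists 3 starts each for Dnmt1, Dnmt3a and Dnmt3l, 2 for Uhrf1 and 1 each for the other 4 genes. The start of Dnmt1 nearest the 5′ end of its counted gene model has a window with 2 CpGs, and the start shown here lies 7265 bases from that end. The mouse gene is known for separate oocyte and somatic first exons. For Uhrf1, the start nearest the 5′ end of the gene model, 16 bases away, has a window with 12 CpGs. The Uhrf1 start shown here lies 992 bases from that end. For Dnmt3l and Tet2 the nearest start is shown. Counts per gene do not tell the starts apart. The E2F motif letters TTTCCCGC or TTTGGCGC, searched on both strands, occur in 1 of the 15 windows of the 8 genes, that of Dnmt1 shown here, and in 1.56% of all windows. A match to these letters is a description of the sequence and not a binding site.

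Maintenance genes were the most abundant of the 8 transcripts. Per length, in TPM, the length-scaled unit of the authors' second normalized table, Dnmt1 had 248 and 259 in libraries A and B of Tex11PM/Y, against 176 and 244 in WT replicates 1 and 2. Uhrf1 had 232 and 231 TPM in Tex11PM/Y libraries A and B, against 214 and 194 TPM in WT replicates 1 and 2. Each of these 8 values was at least as high as 97.5% of the values of its library, over the genes above 0 in any library of the TPM table. Between Dnmt1 and Uhrf1 the order was not fixed: Dnmt1 was the higher in 3 of 4 libraries by TPM, with Uhrf1 higher in WT replicate 1, and by counts per kilobase of gene model Uhrf1 had the higher mean.

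**Figure D1:**
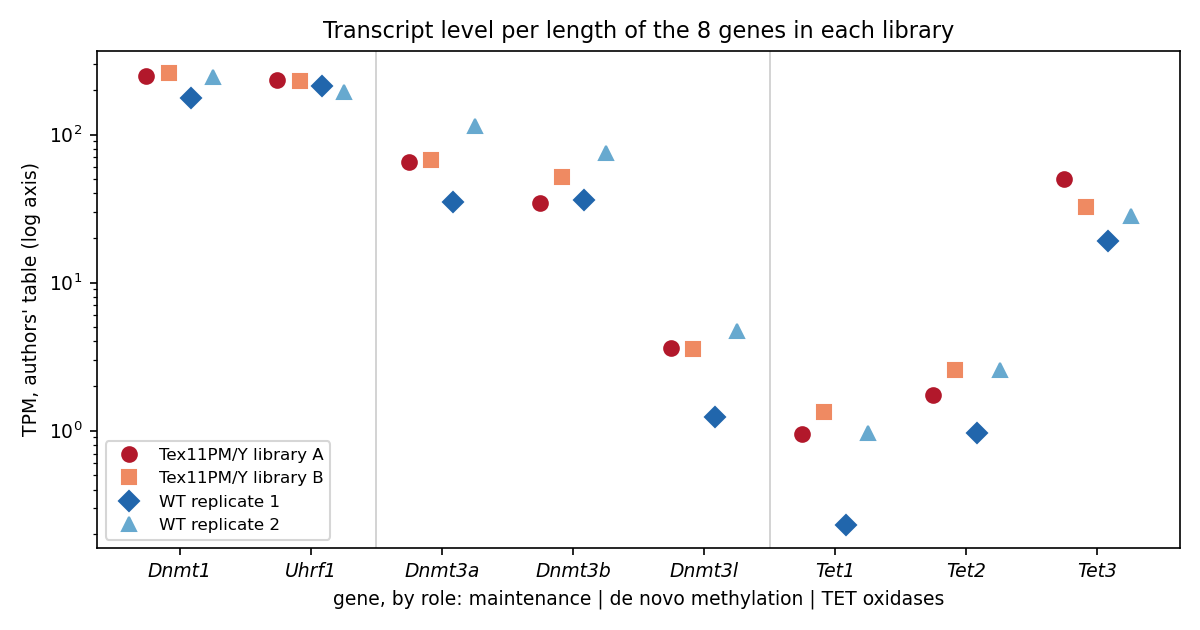
Level of each gene per length, in TPM of the authors' table on a log axis, by library; each point is 1 library and the vertical lines part the genes by role. Dnmt1 and Uhrf1 lie between 176 and 259 TPM in all 4 libraries, and Dnmt3l, Tet1 and Tet2 between 0.229 and 4.73 TPM.

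The de novo enzymes came next and their cofactor was near the bottom. Dnmt3a had 64.7 and 66.8 TPM in Tex11PM/Y libraries A and B, against 35.1 and 114 TPM in WT replicates 1 and 2. Dnmt3b had 34.2 and 51.5 TPM in Tex11PM/Y, against 35.97 and 74.5 TPM in WT. The ranges of these neighbours overlapped, with Dnmt3a higher in 3 of 4 libraries. Dnmt3l had 3.60 and 3.54 TPM in Tex11PM/Y, against 1.24 and 4.73 TPM in WT. Its counts were 47 and 53 in libraries A and B of Tex11PM/Y and 21 and 68 in WT replicates 1 and 2, so that its CPM of 1.18 in WT replicate 1 had an exact Poisson 95% interval from 0.730 to 1.80, which covers counting error only. Dnmt3c, a rodent gene that arose as a copy of Dnmt3b and acts on young transposons in male germ cells, had 1 and 9 counts in Tex11PM/Y and 0 and 2 in WT and did not pass the filter on low counts. Reads shared by such near copies could be split or dropped in counting, so both values are uncertain.

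Among the TET genes, Tet3 made up most of the transcripts. Tet3 had 50.1 and 32.2 TPM in Tex11PM/Y libraries A and B, against 19.2 and 28.1 TPM in WT replicates 1 and 2. Tet2 had 1.75 and 2.55 TPM in Tex11PM/Y, against 0.969 and 2.56 TPM in WT. Tet1, known for its roles in pluripotent cells and in primordial germ cells, had 0.951 and 1.33 TPM in Tex11PM/Y, against 0.229 and 0.969 TPM in WT, from 107 and 170 counts in Tex11PM/Y and 35 and 122 counts in WT. The range of Tet3 overlapped that of Dnmt3b and lay above that of Dnmt3l in all 4 libraries. By TPM, Dnmt3l, Tet2 and Tet1 followed in this order within each of the 4 libraries, though the ranges of neighbours overlapped across libraries. By counts per kilobase of gene model, Tet2 was above Dnmt3l in library B, at 23.6 against 19.9, and in WT replicate 1, at 9.13 against 7.87. It was below Dnmt3l in library A and WT replicate 2.

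As a share of the summed TPM of Tet1, Tet2 and Tet3, Tet3 took 94.9% and 89.3% in libraries A and B of Tex11PM/Y, against 94.1% and 88.8% in WT replicates 1 and 2. Tet1 took 1.80% and 3.68% in Tex11PM/Y, against 1.13% and 3.07% in WT. The groups overlapped in both shares. Of the summed TPM of the 4 Dnmt genes, Dnmt1 took 70.8% and 68.0% in Tex11PM/Y, against 70.8% and 55.8% in WT. WT replicate 2 had the lowest Dnmt1 share and the highest of Dnmt3a, 26.1%, where Tex11PM/Y libraries A and B had 18.4% and 17.6% and WT replicate 1 had 14.2%. Dnmt3b took 9.76% and 13.5% in Tex11PM/Y, against 14.5% and 17.0% in WT, and was the only one of the 7 genes whose groups did not overlap in share. In CPM its groups overlapped, where those of 32.4% of all tested genes did not. No test was run on the share.

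**Figure D2:**
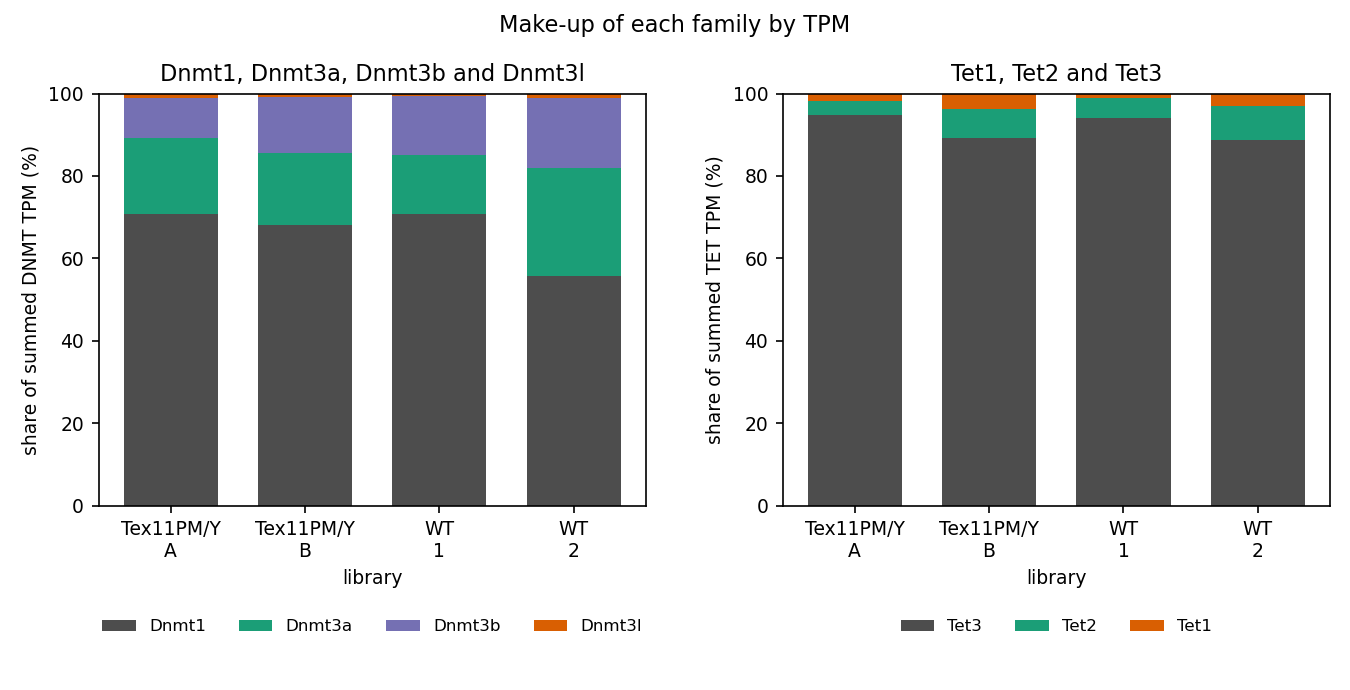
Share of each gene in the summed TPM of its family, in %, for the 4 Dnmt genes (left) and the 3 Tet genes (right), with 1 bar per library. Tet3 fills between 88.8% and 94.9% of the Tet bars, and Dnmt1 between 55.8% and 70.8% of the Dnmt bars.

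Ratios of members within a library, which do not depend on its depth, were compared between genotypes with an exact two-sided permutation test, which cannot give a p under 0.333 with 2 libraries against 2. The ratio of Dnmt3l to Dnmt3a plus Dnmt3b in TPM was 0.0364 and 0.0299 in Tex11PM/Y, against 0.0174 and 0.0251 in WT. Both Tex11PM/Y values were above both WT values (exact permutation p = 0.333, n = 2 each; the smallest p adjusted over the 4 ratios was 0.889). The ratio of Dnmt3a to Dnmt3b was 1.89 and 1.30 in Tex11PM/Y, against 0.976 and 1.53 in WT (exact permutation p = 0.667, n = 2 each). Dnmt1 to Uhrf1 was 1.07 and 1.12 in Tex11PM/Y, against 0.820 and 1.25 in WT, and Tet1 to Tet3 was 0.0190 and 0.0412 in Tex11PM/Y, against 0.0120 and 0.0345 in WT. The groups overlapped in these 3 ratios. By counts per kilobase of gene model the Dnmt3a to Dnmt3b ratio was 1.19 and 0.850 in Tex11PM/Y and 0.686 and 0.873 in WT, so which of the pair was the more abundant depended on the table.

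None of the 8 genes passed the test of Tex11PM/Y against WT at an adjusted p under 0.05 (edgeR quasi-likelihood test, Benjamini-Hochberg over 17262 genes; smallest adjusted p of a member 0.884). At an unadjusted p under 0.05 the count was 0 of 8 too, beside 2.70% of all tested genes, or 466 genes, and over all genes 0% were called at the adjusted threshold. DESeq2 called 2 genes in all, 0.00997% of those it adjusted, and limma on FPKM or TPM 0, with 0 members among them. All 8 genes passed the filter on low counts. Of them 5 were fitted higher and 3 lower in Tex11PM/Y, with a median log2 fold change of 0.09, where 51.0% of all tested genes were fitted higher and the median was 0.01.

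Tet3 was the only member whose groups did not overlap in CPM, as was the case for 32.4% of all tested genes, 16.1% with Tex11PM/Y higher. It had 191 and 135 CPM in Tex11PM/Y libraries A and B, against 99.6 and 120 CPM in WT replicates 1 and 2, with group means of 163 ± 39.8 CPM in Tex11PM/Y and 110 ± 14.2 CPM in WT (SD, n = 2 each). Library A was the high one, and library B stood just above WT replicate 2. Its log2 fold change of 0.57 had a standard error of 0.31 and a 95% interval from -0.16 to 1.30 (edgeR adjusted p = 0.884). With each library left out in turn it ranged from 0.30, without library A, to 0.76, without library B. A fold difference from 0.897 to 2.47 was therefore within the interval.

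Dnmt1 and Uhrf1 had the smallest fold changes and the narrowest intervals. Dnmt1 had 521 and 612 CPM in Tex11PM/Y libraries A and B, against 507 and 569 CPM in WT replicates 1 and 2, with a log2 fold change of 0.07 (95% interval from -0.62 to 0.77). Uhrf1 had 313 and 354 CPM in Tex11PM/Y, against 399 and 291 CPM in WT, with a log2 fold change of -0.05 (95% interval from -0.77 to 0.67). The groups overlapped in CPM for both genes. In TPM both were higher in each Tex11PM/Y library than in each WT library, as 22.7% of 16598 genes of that table were, where the limma fit had a median of 0.18 log2 over all genes and thus a shift of its own. On that scale the log2 fold change of Uhrf1 was 0.18, equal to the shift, and that of Dnmt1 was 0.29.

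The de novo genes had wider intervals, and WT replicate 2 was the highest library for each of them. Dnmt3a had 151 and 181 CPM in Tex11PM/Y libraries A and B, against 127 and 264 CPM in WT replicates 1 and 2, with a log2 fold change of -0.23 (95% interval from -1.16 to 0.69). Dnmt3b had 55.6 and 93.2 CPM in Tex11PM/Y, against 80.8 and 132 CPM in WT, with a log2 fold change of -0.52 (95% interval from -1.44 to 0.41). Dnmt3l had 2.37 and 2.64 CPM in Tex11PM/Y, against 1.18 and 3.44 CPM in WT, with a log2 fold change of 0.11 (95% interval from -1.64 to 1.87). The WT pair enclosed both Tex11PM/Y values for Dnmt3a and Dnmt3l.

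Dnmt3a lies on chromosome 12, whose 632 tested genes stood, in WT replicate 2, a median of 0.57 log2 above their mean over the other 3 libraries. Dnmt3a itself was higher there by 0.80 log2, and 24.4% of the chromosome's genes reached that value. The part of the chromosome in the level of Dnmt3a was not tested. The other 7 members lie on chromosomes whose medians for WT replicate 2 were between -0.02 and 0.09 log2. Relative to the median of its chromosome, the log2 fold change of Dnmt3a was 0.04. Dnmt3b, on chromosome 2, and Dnmt3l, on chromosome 10, were higher in WT replicate 2 by 0.82 and 0.78 log2.

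Tet1 and Tet2 were low in WT replicate 1. Tet1 had 5.39 and 8.47 CPM in Tex11PM/Y libraries A and B, against 1.97 and 6.17 CPM in WT replicates 1 and 2, with a log2 fold change of 0.77 (95% interval from -0.95 to 2.48). Tet2 had 6.75 and 10.8 CPM in Tex11PM/Y, against 4.72 and 10.1 CPM in WT, with a log2 fold change of 0.24 (95% interval from -1.19 to 1.68). Leaving out WT replicate 1 gave log2 fold changes of 0.15 for Tet1 and -0.22 for Tet2, and leaving out WT replicate 2 gave 1.80 for Tet1.

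**Figure D3:**
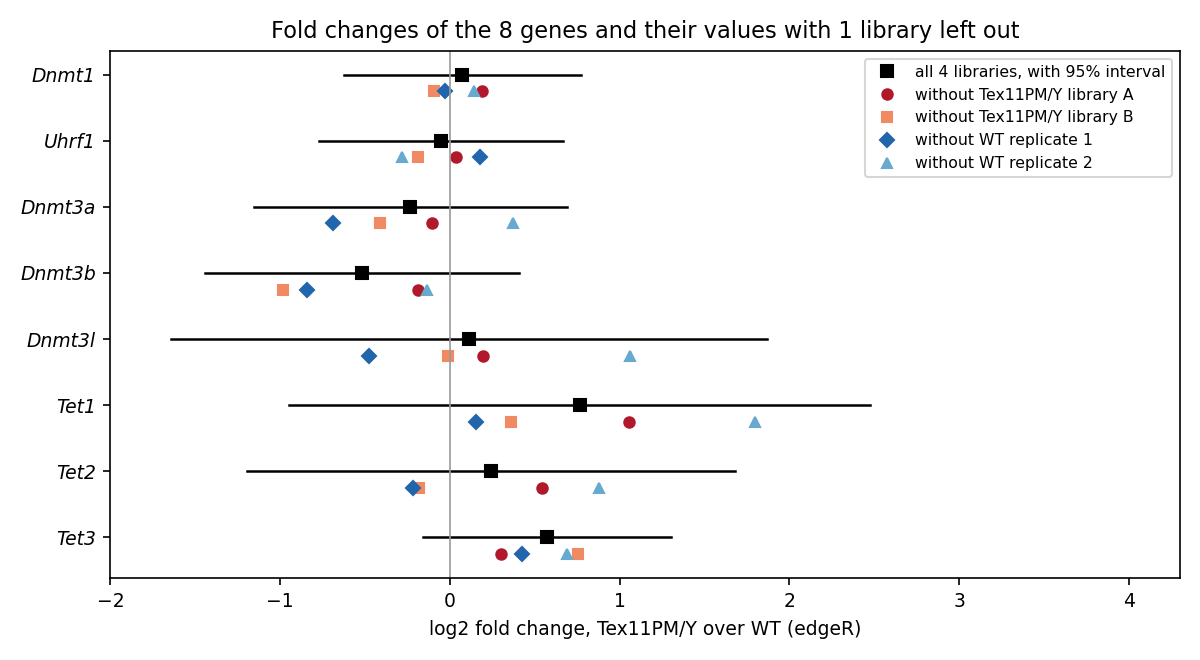
Log2 fold change of each gene, Tex11PM/Y over WT, from edgeR: black squares with lines are the fit of all 4 libraries with its 95% interval, and coloured points below are fits without 1 library. The interval of each gene spans 0, and Tet3, Tet1 and Dnmt3b keep their sign in all 4 fits.

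For 7 of the 8 genes the larger gap between libraries of a genotype exceeded the gap between the genotype means in log2 CPM, Tet3 being the exception, as it did for 82.6% of all tested genes. WT replicate 1 was the lowest library for 6 of the 8 genes (Dnmt1, Dnmt3a, Dnmt3l, Tet1, Tet2 and Tet3), where it was the lowest for 34.4% of all tested genes. Uhrf1 was the exception in the other direction, with its highest level there. In that library fibroblast markers took the largest share of counts, 1.83%, and germ cell markers averaged 8.21 log2 CPM, against 8.21 to 8.32 log2 CPM in the other libraries. As a share of counts, germ cell markers were lowest there, at 0.228%, against 0.285% to 0.317% in the other libraries. The part of other cells in the low values was not tested.

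From the highest to the lowest library, Dnmt1 spanned 1.21-fold and Uhrf1 1.37-fold, where the median over all tested genes was 2.08-fold. A share of 4.54% of tested genes had a range as small as that of Dnmt1, and 14.5% as small as that of Uhrf1. Among genes within 2-fold of their own mean CPM these shares were 9.43% of 583 genes for Dnmt1 and 31.6% of 1230 genes for Uhrf1. Tet1 spanned 4.14-fold, Dnmt3l 2.76-fold, Dnmt3b 2.37-fold, Tet2 2.26-fold, Dnmt3a 2.08-fold and Tet3 1.92-fold. The low counts of Tet1, Tet2 and Dnmt3l add counting error to these spans. Among genes within 2-fold of their level 74.5%, 48.1% and 48.2% spanned as little or less. For Dnmt3b, Dnmt3a and Tet3 the same shares were 81.4%, 76.2% and 69.2%.

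**Figure D4:**
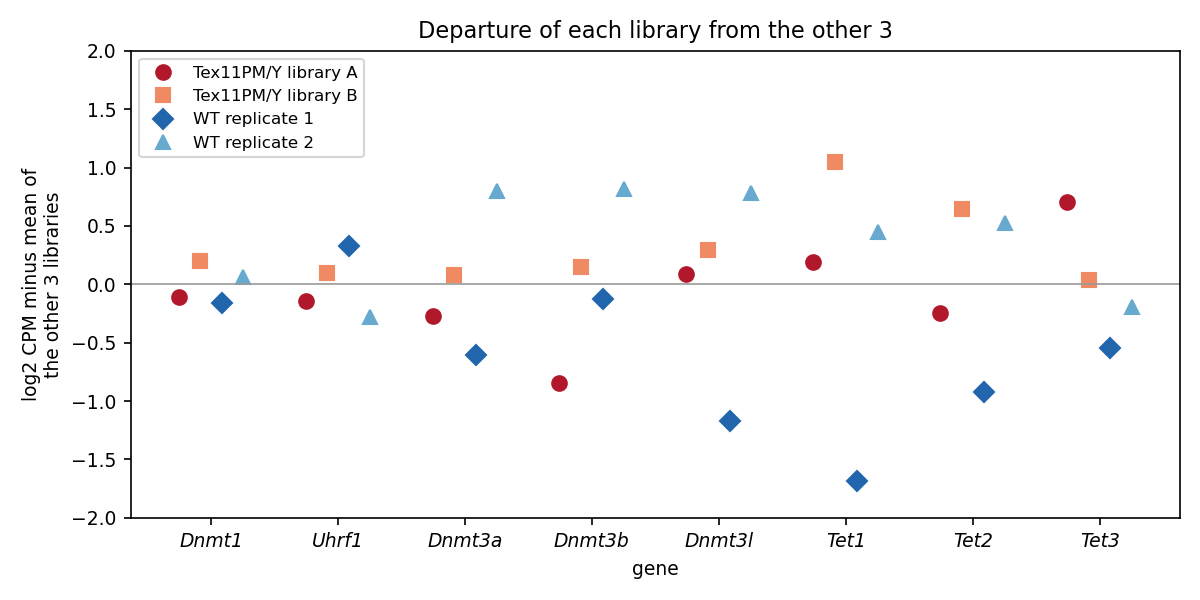
Log2 CPM of each gene in each library minus the mean of the other 3 libraries; each point is 1 library. WT replicate 1 lies at -1.69 for Tet1 and -1.17 for Dnmt3l, while all points of Dnmt1 lie between -0.16 and 0.20.

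Patterns of the members over the 4 libraries were compared by the root mean square distance between log2 CPM values centred on each gene's mean. The closest pairs were Dnmt3l with Tet2, at 0.23, and Dnmt1 with Uhrf1, also at 0.23, and the farthest was Uhrf1 with Tet1, at 0.89. A small distance is also reached by genes that vary little, as Dnmt1 and Uhrf1 did, without a shared direction. Relative to the mean of the other libraries, WT replicate 1 stood at -0.16 log2 for Dnmt1 and 0.33 for Uhrf1. WT replicate 2 stood at 0.06 and -0.28. Library A was below and library B above the mean of the other libraries for both genes. The nearest other genes were Hmgn2 (0.0099) and Sbds (0.010) for Dnmt1, Pnkd (0.017) and Lrrc41 (0.021) for Uhrf1, and Tmem87b (0.018) and Ttc19 (0.019) for Tet3. For Dnmt3a they were Vipas39 (0.040) and Itpk1 (0.047), for Dnmt3b Ap1g2 (0.016) and Higd1a (0.040), for Tet2 Ctdp1 (0.032) and Maml3 (0.039), for Tet1 Gpr27 (0.072) and Parp14 (0.078), and for Dnmt3l Tnfrsf8 (0.087) and Rnaseh1 (0.093). With 4 libraries many genes were close by: 2325 of 10910 genes lay within 0.2 of Dnmt1 and 1188 within 0.2 of Tet3, but 14 within 0.2 of Tet1, a distance chosen after the values were seen.

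Genes that work with the maintenance enzymes had no common direction. Of 13 such genes, 8 were fitted higher and 5 lower in Tex11PM/Y and 0 passed the threshold, with a median log2 fold change of 0.18 where all genes had 0.01. That median was -0.059, with 5 of 13 higher, when WT replicate 1 was left out, 0.015 without library A, 0.12 without library B and 0.17 without WT replicate 2. Hells, a remodeller needed for DNA methylation of repeats, had 496 and 288 CPM in Tex11PM/Y libraries A and B, against 146 and 330 CPM in WT replicates 1 and 2 (log2 fold change 0.72, edgeR adjusted p = 0.884). Dppa3, which keeps UHRF1 from chromatin in oocytes, had 5.34 and 5.78 CPM in Tex11PM/Y, against 6.41 and 16.2 CPM in WT. Usp7, a deubiquitinase that binds DNMT1 and UHRF1, had 405 and 299 CPM in Tex11PM/Y, against 275 and 339 CPM in WT. The histone chaperone gene Rbbp4 had 385 and 408 CPM in Tex11PM/Y, against 527 and 423 CPM in WT. The groups of Rbbp4 and Dppa3 did not overlap, as was the case for 32.4% of all tested genes. Those of Hells and Usp7 did overlap.

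Genes of DNA replication, with which Dnmt1 and Uhrf1 are known to be expressed, had 9 of 21 fitted higher and 12 lower, a median log2 fold change of -0.15 and 0 past the threshold. As a list they averaged 5.93 and 5.82 log2 CPM in Tex11PM/Y libraries A and B and 5.88 and 5.91 log2 CPM in WT replicates 1 and 2. The helicase subunit genes Mcm2 and Mcm7 had log2 fold changes of -0.15 and 0.15, Tyms of nucleotide synthesis 0.62, and Gins2 of the replicative helicase -0.67. Leaving out WT replicate 1 moved the median of the list to -0.0087, with 10 of 21 genes fitted higher, and leaving out any other library kept it between -0.15 and -0.13.

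Partners of de novo methylation and heterochromatin were mostly fitted higher, with 17 of 20 tested genes higher and 3 lower. Their median log2 fold change was 0.39 and 0 passed the threshold. Of all tested genes 51.0% were fitted higher, with a median of 0.01. Cbx5, which encodes the heterochromatin protein HP1 alpha, had 273 and 151 CPM in Tex11PM/Y libraries A and B, against 84.0 and 131 CPM in WT replicates 1 and 2 (log2 fold change 0.98, edgeR adjusted p = 0.884). Nsd1, a histone H3 lysine 36 methyltransferase whose mark guides DNMT3A, had 410 and 229 CPM in Tex11PM/Y, against 136 and 234 CPM in WT. Trim28, a corepressor of transposons, had 782 and 755 CPM in Tex11PM/Y, against 777 and 653 CPM in WT, and the histone H3 lysine 9 methyltransferase gene Ehmt2 had 470 and 747 CPM in Tex11PM/Y, against 577 and 714 CPM in WT. Library A was the highest for Cbx5, Nsd1 and Trim28 and the lowest for Ehmt2. The list averaged 7.19 and 6.70 log2 CPM in Tex11PM/Y libraries A and B and 6.43 and 6.78 log2 CPM in WT replicates 1 and 2, the reverse order of the fibroblast list in these libraries, and the part of other cells in it was not tested. Without library A 13 of 20 were fitted higher, with a median of 0.13, and the median was 0.26 without WT replicate 1, 0.46 without library B and 0.66 without WT replicate 2.

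Of 8 genes from the families of methyl-CpG readers, 6 were fitted higher and 2 lower, where 51.0% of all tested genes were fitted higher. Their median log2 fold change was 0.38, against 0.01 over all tested genes, and 0 passed the threshold. They were listed by family, and not each of them, Mbd3 among these, need bind methylated CpG. Mbd3, of the NuRD complex, had 103 and 109 CPM in Tex11PM/Y libraries A and B, against 81.2 and 92.3 CPM in WT replicates 1 and 2. The zinc-finger reader gene Zbtb33, also called Kaiso, had 136 and 71.5 CPM in Tex11PM/Y, against 38.8 and 81.7 CPM in WT. Its relative Zbtb4 had 3.07 and 10.7 CPM in Tex11PM/Y, against 26.5 and 9.71 CPM in WT. The groups of Mbd3 did not overlap, as was the case for 32.4% of all tested genes. Those of Zbtb33 and Zbtb4 did overlap. The median of the list was 0.14 without WT replicate 1 and 0.22 without library A, but 0.49 without library B and 0.50 without WT replicate 2.

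Partners of TET enzymes and base excision genes were split, with 7 fitted higher and 9 lower of 16 tested, a median log2 fold change of -0.06 and 0 past the threshold. With 16 to 18 of the genes tested, that median was -0.27 without library A, -0.20 without library B, -0.15 without WT replicate 2 and -0.046 without WT replicate 1. Ogt, an X-linked glycosyltransferase that binds TET proteins, had a log2 fold change of 0.76 with a standard error of 0.36. The DNA glycosylase gene Neil2 had 75.0 and 61.5 CPM in Tex11PM/Y libraries A and B, against 35.0 and 47.4 CPM in WT replicates 1 and 2. Gadd45b, a stress-response gene linked to demethylation, had 10.4 and 16.5 CPM in Tex11PM/Y, against 64.9 and 18.4 CPM in WT, with WT replicate 1 far above the rest. Parp1 of DNA repair had 628 and 877 CPM in Tex11PM/Y, against 878 and 716 CPM in WT, and Sall4, a zinc-finger factor of germ and pluripotent cells, had 273 and 208 CPM in Tex11PM/Y, against 154 and 240 CPM in WT. Ogt was named after its values were seen.

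For the supply of S-adenosylmethionine, the methyl donor, 7 of 11 genes were fitted higher and 4 lower, with a median log2 fold change of 0.14 and 0 past the threshold. That median was 0.036 without library A, 0.11 without WT replicate 1, 0.18 without library B and 0.27 without WT replicate 2. Mat2a, which makes the donor, had 284 and 119 CPM in Tex11PM/Y libraries A and B, against 129 and 134 CPM in WT replicates 1 and 2, so library A alone was high. Its regulatory subunit gene Mat2b had 161 and 119 CPM in Tex11PM/Y, against 76.1 and 121 CPM in WT. Methionine synthase, Mtr, had 410 and 676 CPM in Tex11PM/Y, against 373 and 761 CPM in WT, and the mitochondrial serine enzyme gene Shmt2 had 157 and 230 CPM in Tex11PM/Y, against 123 and 229 CPM in WT.

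Germline genes whose promoters are silenced by methylation in somatic cells were mostly fitted higher, with 13 of 15 higher and 2 lower. Their median log2 fold change was 0.35 and 0 passed the threshold. Of all tested genes 51.0% were fitted higher, with a median of 0.01. Dazl, Ddx4, Mael and Tex101 of this list are also among the germ cell markers. Dazl, an RNA-binding protein gene of germ cells, had 1194 and 810 CPM in Tex11PM/Y libraries A and B, against 552 and 876 CPM in WT replicates 1 and 2. Sycp1, of the synaptonemal complex, had 287 and 78.1 CPM in Tex11PM/Y, against 44.7 and 95.1 CPM in WT. Taf7l, an X-linked germ cell transcription factor gene, had 726 and 387 CPM in Tex11PM/Y, against 341 and 346 CPM in WT. Library A was the highest for all 3 of these genes. The list averaged 7.42 and 7.04 log2 CPM in Tex11PM/Y libraries A and B and 6.61 and 7.09 log2 CPM in WT replicates 1 and 2. That is again the reverse order of the fibroblast list. The averages of the methyl-CpG readers and of the methyl donor genes had this reverse order too. Those of the TET partners and base excision genes had the order of the fibroblast list. The part of other cells in these orders was not tested. Its median log2 fold change was 0.14 without WT replicate 1, 0.18 without library A, 0.39 without library B and 0.68 without WT replicate 2. Sycp1 reached 1.99 log2 when library B was left out, but that fit keeps library A as its only Tex11PM/Y library. In library B its level of 78.1 CPM was below the 95.1 CPM of WT replicate 2. The fit therefore cannot tell a difference between genotypes from a high level in library A.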

How the data were processed

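RNA of 1 µg per sample was enriched for poly(A), fragmented and primed with random hexamers, per the labels' protocols. Per the submitters' processing notes, the tools were STAR, StringTie, fastp, featureCounts and DESeq2, in no stated role or version, with mm10 as the build. No source used here gives the annotation release. The authors deposited raw whole-number read counts of 55335 genes, laid out like featureCounts output. Their deposited FPKM and TPM tables, named so per the file headers, cover 37653 genes each.

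The FPKM table gave symbols to 37653 genes, a name table to 17547 more, and 135 had none. The counts were fitted with edgeR 4.0.16 under R 4.3.3 (TMM, filterByExpr, robust quasi-likelihood F tests, genotype as the only term, all 4 libraries), with Benjamini-Hochberg adjustment over 17262 genes and a threshold of 0.05. The biological coefficient of variation was 43.4%. Log2 CPM used a prior count of 2. Intervals of fold changes are 95% intervals from the same fit. Levels of different genes were compared per length, in TPM or as counts per kilobase of gene model.

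Alternatives were DESeq2 1.42.0, its size factors in edgeR, library size alone, no count filter, at least 1 CPM in 2 libraries, limma 3.58.1 on log2(FPKM + 1), log2(FPKM + 0.1) and log2(TPM + 1) for genes of at least 1 in 2 libraries, the same on FPKM with no filter, and leaving out each library. No pair of libraries agreed within sampling noise: chi-square values per degree of freedom ran from 18.6, between Tex11PM/Y library B and WT replicate 2, to 217, between Tex11PM/Y library A and WT replicate 1. The text names all 8 members, Tex11, in each of 12 lists (166 entries) the 2 genes of highest mean CPM and the 2 of smallest p, and for each member the 2 genes of nearest pattern with a mean of at least 5 CPM; cell type lists are given as list averages instead. The members and lists were chosen with earlier results of these data known. RefSeq windows matched all 8 members by symbol. Figures were drawn with matplotlib 3.10.9.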

Additional observations from a re-analysis of the deposited data

How the results depend on the processing

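No paired analysis was possible because both Tex11PM/Y columns carry the same replicate number. With 2 libraries per genotype the intervals of the 8 genes are wide, and low counts limit Dnmt3l, Tet1 and Tet2 most. Members past the threshold numbered 0 under every alternative run, with adjusted p-values of the 8 genes from 0.347 to 1. Genes past the threshold numbered 0 in the edgeR fit of all 4 libraries (466 at an unadjusted p under 0.05), 2 with DESeq2 (1 higher, 1 lower) and 50 with no filter on low counts (16 higher, 34 lower). With 1 library left out the count ranged from 0 to 518, all 518 without Tex11PM/Y library B (74 higher, from 0 to 74 over these fits, and 444 lower, from 0 to 444). That fit leaves 1 Tex11PM/Y library, which is assumed to vary like the others. List genes past the threshold ranged from 0 to 24 over the same fits, and the 24, again without library B, held 14 fibroblast markers, 8 macrophage markers, Thy1 of the spermatogonia markers and the germline gene Sycp1. Dnmt3b, Tet1 and Tet3 kept their direction in every fit that held them. Tet1 did not pass the filter of the limma fits on FPKM or TPM, and Tet2 did not pass that on FPKM. The log2 fold change of Uhrf1 turned to 0.024 with library size alone, 0.062 with log2(FPKM + 1), filtered or not, 0.062 with log2(FPKM + 0.1) and 0.18 with log2(TPM + 1), where Dnmt3a turned to 0.050; the cause was not tested. The median of all genes was 0.014 in the main fit, 0.076 with library size alone and 0.067 with log2(FPKM + 1). With no filter on FPKM it was 0.023, with log2(FPKM + 0.1) 0.077 and with log2(TPM + 1) 0.18. It was 0.059 with no filter on low counts and 0.063 with DESeq2, and in these fits Uhrf1 kept its direction. With a library left out the log2 fold changes ranged from -0.094 to 0.19 for Dnmt1, from -0.28 to 0.18 for Uhrf1, from -0.69 to 0.37 for Dnmt3a, from -0.98 to -0.13 for Dnmt3b, from -0.48 to 1.06 for Dnmt3l, from 0.15 to 1.80 for Tet1, from -0.22 to 0.88 for Tet2 and from 0.30 to 0.76 for Tet3. Counts per kilobase kept 4 of 8 members at their rank of mean level by TPM, with Dnmt1 and Uhrf1, and Dnmt3a and Dnmt3b, changing places. They gave mean ratios of Dnmt3a to Dnmt3b of 1.02 in Tex11PM/Y and 0.779 in WT, of Dnmt3l to Dnmt3a plus Dnmt3b of 0.0282 in Tex11PM/Y, and of Dnmt1 to Uhrf1 of 0.988 in Tex11PM/Y.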
